A study of Mus musculus with 6 samples.

Results

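The thiol antioxidant and NRF2 system was taken as 40 named genes: the enzymes that make, recycle and break down glutathione, the transsulfuration enzymes, the glutathione peroxidases, peroxiredoxins, thioredoxins, glutaredoxins and superoxide dismutases, catalase, a few quinone and conjugating enzymes, and the regulators *Nfe2l2* and *Keap1*. They were given as a list of names, drawn up with earlier results of these data known, and all 40 were found among the 55367 genes listed. RNA-seq compared leukemia stem cells (LSCs) sorted from the bone marrow of WT and Piezo1cko mice with acute myeloid leukemia (AML), with 3 libraries per group, to ask how gene expression in LSCs differs once the mechanosensitive channel gene *Piezo1* is deleted. Donors of the Piezo1cko group were Mx1-cre; Piezo1 fl/fl mice and donors of the WT group their Piezo1 fl/fl littermates, which carry the floxed alleles but no Cre, and both had received poly(I:C) at an age of 8 to 10 weeks. Lineage-negative marrow cells of these donors were transduced with a retrovirus carrying the MLL-AF9 fusion and YFP and transplanted into irradiated C57BL/6 mice, so that all 6 libraries come from MLL-AF9 leukemia. Mx1-Cre is switched on by interferon in many cell types and is not specific to leukemia cells, and it is present in 1 group only. The labels give each library a replicate number but do not say whether libraries came from separate mice, so the p-values measure only the spread between these libraries.

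Glutathione is a tripeptide that holds the cell's main pool of reduced thiols. Glutathione peroxidases spend it to reduce peroxides, with GPX4 acting on lipid peroxides in membranes, glutathione reductase restores it with NADPH, and cysteine, taken up as cystine or made by transsulfuration, limits how much of it is made. Peroxiredoxins and thioredoxins form a parallel system that thioredoxin reductase feeds from NADPH, and the transcription factor NRF2, encoded by *Nfe2l2* and held at a low level by KEAP1, switches on many genes of both systems.

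The promoters of members that changed show which regulatory letters lie near their start sites. RefSeq windows of 300 bases on GRCm38.p6, from 250 bases before to 50 bases after a start site, were matched to 36 of the 40 members, and *Gclc*, *Gsr*, *Cth* and *Prdx6* were not matched. The core of the antioxidant response element that NRF2 binds with small MAF proteins, TGACNNNGC on either strand, was found for 8 of the 36 members and for 14.0% of the 27025 genes with a window. Of these 8, *Gclm*, *Srxn1*, *Txnrd1*, *Ggct* and *Nfe2l2* were lower in Piezo1cko LSCs, *Prdx1* and *Sod1* were higher, and *Mgst1* did not pass the threshold described further down. A form of the C/EBP-ATF response element, TGATGNAA on either strand, was found in 4.51% of genes and among the members only in *Chac1*. The AP-1 letters TGACTCA, found in 5.95% of genes, were in the windows of *Srxn1*, *Glrx*, *Prdx1* and *Gstp1*. In *Prdx1* the AP-1 match at position -131 from the start site overlaps the antioxidant response element letters, and that at -237 does not. A match describes the letters of the window and says nothing of binding. The windows below are all on the + strand and run 5′ to 3′. The first, from *Chac1* at chr2:119350992-119351291, has the C/EBP-ATF letters in capitals, and the others have the antioxidant response element letters in capitals. They are *Gclm* at chr3:122245307-122245606, *Srxn1* at chr2:152105274-152105573 and *Txnrd1* at chr10:82858956-82859255, which were lower in Piezo1cko LSCs, and *Prdx1* at chr4:116685349-116685648, which was higher.
Chac1: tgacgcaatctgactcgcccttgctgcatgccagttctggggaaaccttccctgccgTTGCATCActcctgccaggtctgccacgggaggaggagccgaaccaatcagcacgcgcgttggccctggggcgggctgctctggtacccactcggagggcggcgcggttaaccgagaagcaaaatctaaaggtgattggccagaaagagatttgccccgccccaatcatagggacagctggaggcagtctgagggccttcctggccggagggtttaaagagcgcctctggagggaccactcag
Gclm: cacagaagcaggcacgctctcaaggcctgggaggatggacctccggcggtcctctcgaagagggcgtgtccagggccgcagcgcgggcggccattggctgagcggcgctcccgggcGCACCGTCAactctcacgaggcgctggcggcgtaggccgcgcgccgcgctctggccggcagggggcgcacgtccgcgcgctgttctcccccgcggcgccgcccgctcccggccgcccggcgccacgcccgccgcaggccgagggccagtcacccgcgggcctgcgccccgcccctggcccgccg
Srxn1: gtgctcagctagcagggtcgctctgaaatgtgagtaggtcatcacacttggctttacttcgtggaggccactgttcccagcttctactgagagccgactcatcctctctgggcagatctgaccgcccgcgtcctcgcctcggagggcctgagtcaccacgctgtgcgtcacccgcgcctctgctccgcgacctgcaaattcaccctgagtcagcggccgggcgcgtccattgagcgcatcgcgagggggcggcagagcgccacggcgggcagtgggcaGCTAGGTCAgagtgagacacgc
Txnrd1: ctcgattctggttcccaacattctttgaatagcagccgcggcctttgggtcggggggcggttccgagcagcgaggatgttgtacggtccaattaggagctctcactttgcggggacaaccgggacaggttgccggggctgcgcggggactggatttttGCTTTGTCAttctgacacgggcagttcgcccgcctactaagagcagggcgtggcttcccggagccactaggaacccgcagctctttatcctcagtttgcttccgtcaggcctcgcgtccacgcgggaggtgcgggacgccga
Prdx1: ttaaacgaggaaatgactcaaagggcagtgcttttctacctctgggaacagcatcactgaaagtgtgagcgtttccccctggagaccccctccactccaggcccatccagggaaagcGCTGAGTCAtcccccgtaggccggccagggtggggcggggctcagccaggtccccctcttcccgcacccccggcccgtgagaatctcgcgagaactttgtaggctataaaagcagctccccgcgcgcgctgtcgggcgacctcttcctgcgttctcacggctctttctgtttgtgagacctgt
The capitals begin at position -193 from the start site in *Chac1*, -134 in *Gclm*, 28 in *Srxn1*, -92 in *Txnrd1* and -133 in *Prdx1*. The rise of *Prdx1* was small, at 106% of the WT mean, and its call was lost in 4 of the 6 fits that leave out 1 library.

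The deposited values are log2 levels in which each library is pulled towards the gene's average, so that a log2 difference on this scale understates the change, and by more where reads are scarce. They could be turned back into whole reads per gene, with 14112083 to 15483544 reads per library, and "normalized reads" below are these reads divided by the library's size factor. *Piezo1* had 101, 92.8 and 109 normalized reads in the WT libraries and 36.6, 56.5 and 45.8 in the Piezo1cko libraries, 45.9% of the WT mean. Its log2 difference was -0.29 (adjusted p 5.80e-06, limma), and the table does not separate its deleted exons from the rest. Of the 7 leukemia stem and progenitor markers, *Kit*, *Cd34* and *Ptprc* were higher and *Mpo* and *Meis1* lower in Piezo1cko LSCs, and all 7 were detected in every library. Sums of markers of other cells also differed between the groups for some cell types, and overlapped for T cell, macrophage and megakaryocyte markers. Calls of markers are at an adjusted p under 0.05 (limma), by which 31.4% of all genes tested were lower and 31.6% higher. The 6 mast cell and basophil markers summed to 4216 to 4424 normalized reads in WT and 12173 to 12267 in Piezo1cko libraries, with 5 of 6 higher. The 7 neutrophil markers summed to 2480 to 2505 against 875 to 919, with 5 lower, *Mmp8* higher and *Retnlg* at 0 in all libraries. The 8 erythroid markers summed to 111 to 122 against 31.5 to 43.9, with 2 lower. The B cell markers, with 3 of the 3 tested higher, summed to 1537 to 1597 against 2415 to 2638, nearly all of it *Cd79b*, with *Ms4a1* and *Pax5* under 1 read on average. The 5 T cell markers summed to 59.6 to 66.6 against 65.3 to 112, with 2 higher and 1 lower. The 6 macrophage markers, with 2 higher, summed to 2223 to 2429 against 2284 to 2332, with *C1qa* at 0, and the 4 megakaryocyte markers, with 2 higher and 2 lower, to 261 to 318 against 267 to 302. The part of these cells in the differences of the thiol genes was not tested. In sorted bulk cells, fewer cells of a type and less RNA per cell cannot be told apart. Of the markers called, *C1qc* and *Cd2* had no reads in WT libraries, and *C1qb* and *Ebf1* nearly none. *Slc4a1*, *Ltf* and *Ppbp* had no reads in Piezo1cko libraries. These markers entered the fit through the other group alone or nearly so, and their calls are given as a description only.

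In Piezo1cko LSCs the thiol genes did not move as 1 block. All 3 glutathione breakdown genes, both transsulfuration genes, *Gsr* and the synthesis genes *Gclm* and, by little, *Gss* were lower. The call of *Gss* was lost in 4 of the 6 fits that leave out 1 library, and the synthesis gene *Gclc* was not lower. The 3 glutathione peroxidases tested did not pass the threshold, and the superoxide dismutase *Sod1*, the peroxiredoxin *Prdx4* and catalase were higher. Of the 38 members tested, 19 were lower and 9 higher at an adjusted p under 0.05 (limma on the deposited values), while 31.4% of all 16746 genes tested were lower and 31.6% higher, 63.0% in all. So many genes differed in these libraries that a called member by itself is common. The median log2 difference, Piezo1cko minus WT, was -0.04 over the 38 members and 0.00 over all genes. After the libraries were given equal medians, the split was 16 lower and 13 higher. The shares of all genes above are those of the fit without this step. On the deposited values, without this step, 19 members were lower with no overlap between the groups and 12 were higher, against 33.1% and 33.5% of all genes. With the stricter rule of an adjusted p under 0.05 and a change over 2-fold in the reads (limma-voom), 7 members were lower, namely *Chac1*, *Cth*, *Cbs*, *Srxn1*, *Gclm*, *Ggct* and *Txnip*, and *Nqo1* was higher. By that rule 12.2% of 17352 genes were lower and 12.7% higher. *Gpx7* is listed at 0 in all libraries and *Gpx8* had a mean under 1 read, and neither was tested. *Cth* and *Cbs* had reads in WT libraries only, so their place among the tested members rests on that group.

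**Figure D1:**
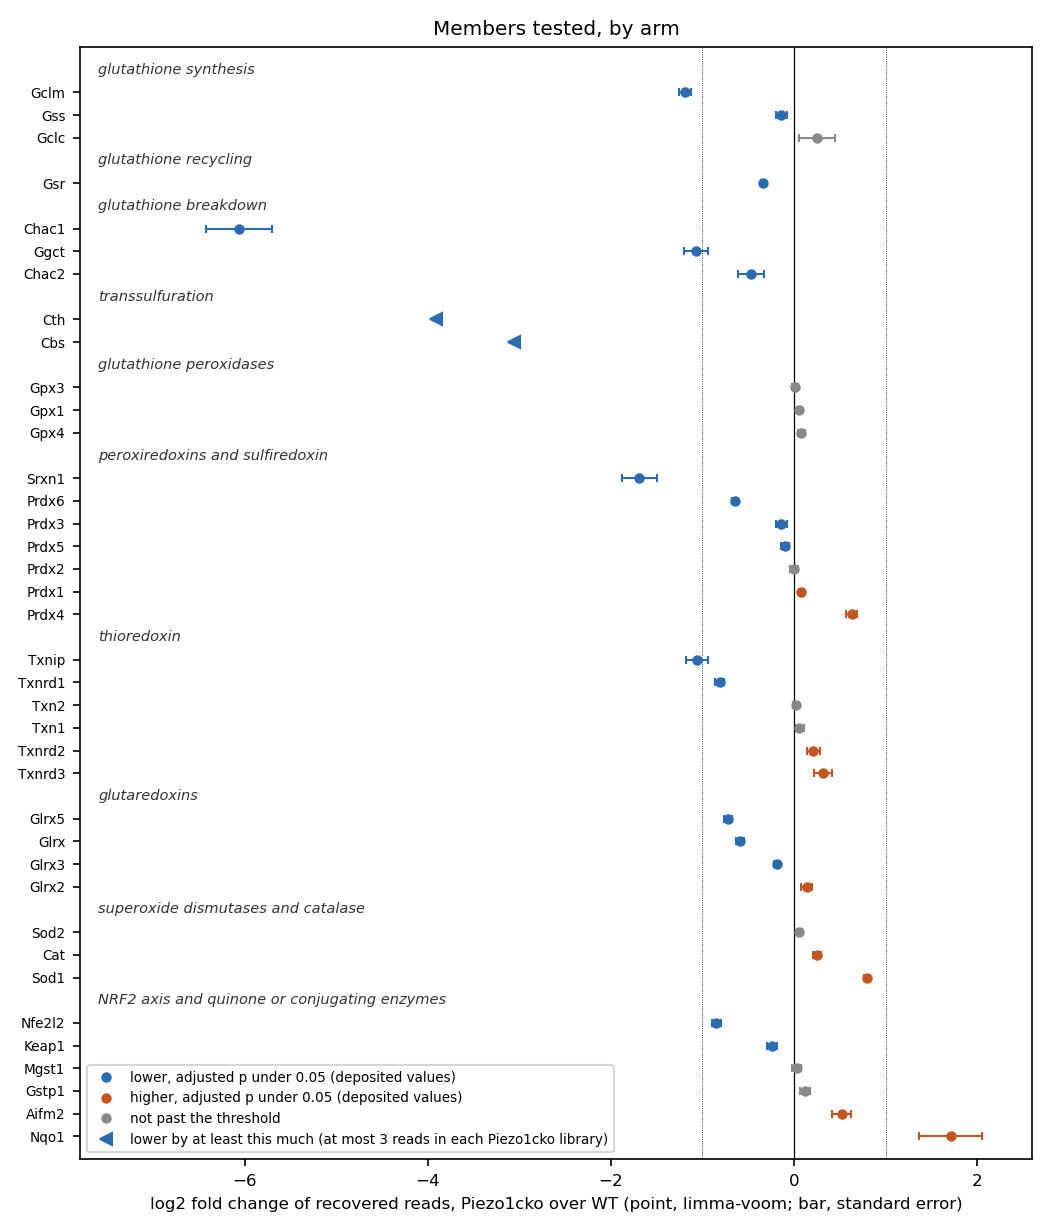
Log2 fold change of normalized reads, Piezo1cko over WT, for the 38 members tested, by arm of the system, with bars for the standard error and dotted lines at a 2-fold change. Arrowheads show the least fall that 3 reads per library allow for *Cth* and *Cbs*, *Chac1* lies at -6.06, and the 3 glutathione peroxidases lie between 0.01 and 0.08.

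Glutathione synthesis was split between the subunits of its first enzyme, glutamate-cysteine ligase. *Gclm*, its modifier subunit (chromosome 3, 122245557 to 122270732), had 919, 853 and 844 normalized reads in WT and 347, 403 and 400 in Piezo1cko libraries. Every Piezo1cko library lay far below every WT library, at 43.9% of the WT mean, with a log2 difference of -0.72 ± 0.04 (SE, adjusted p 1.49e-11, limma) on the deposited scale and a log2 fold of -1.19 ± 0.07 in the reads. *Gclc*, the catalytic subunit (chromosome 9, 77754535 to 77794485), had 76.7, 87.8 and 61.6 reads in WT and 110, 100 and 63.1 in Piezo1cko libraries, and the groups overlapped. Its log2 difference of 0.07 did not pass the threshold (adjusted p 0.222, limma), though it came to 0.14 and passed (adjusted p 0.0182) without Piezo1cko replicate 3. Per kilobase of exon, *Gclm* had 139 normalized reads and *Gclc* 20.0 in WT, so that the modifier subunit stayed the more abundant in both groups, at 60.9 against 24.2 in Piezo1cko LSCs. *Gss*, glutathione synthetase, which adds glycine in the second step, had 533, 555 and 556 reads in WT and 521, 477 and 494 in Piezo1cko libraries. This small difference of -0.08 was just past the threshold (adjusted p 0.0453, limma) and was lost in 4 of the 6 fits that leave out 1 library, and *Gss* shares exon bases with genes on the other strand. *Gsr*, glutathione reductase, was 1 of the most abundant members and read 18045, 17184 and 17696 in WT and 13905, 13731 and 14127 in Piezo1cko libraries. Its groups were well apart, at 78.9% of the WT mean (log2 difference -0.25, adjusted p 1.23e-09, limma).

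All 3 genes of glutathione breakdown were lower, as were 31.4% of all genes. *Chac1*, a gamma-glutamylcyclotransferase that cleaves glutathione inside the cell and is a known target of the stress factor ATF4 (chromosome 2, 119351229 to 119354381), had the largest fall of the members with reads in both groups. It had 308, 304 and 292 normalized reads in WT libraries and 6.27, 4.87 and 2.04 in Piezo1cko libraries. The Piezo1cko mean was 1.46% of the WT mean, with a log2 fold of -6.06 ± 0.36 in the reads and a difference of -1.51 ± 0.04 (adjusted p 1.07e-16, limma) on the deposited scale. *Chac2*, the related enzyme with constitutive activity, had 99, 86.8 and 89.5 reads in WT and 70.0, 59.5 and 69.2 in Piezo1cko libraries. Its groups did not overlap either, but it kept 72.2% of the WT level (log2 difference -0.13, adjusted p 0.00588, limma). *Ggct*, which takes the gamma-glutamyl dipeptides released from glutathione to 5-oxoproline (chromosome 6, 54982580 to 54992950), read 151, 132 and 149 in WT and 68.9, 63.4 and 73.3 in Piezo1cko libraries, 47.5% of the WT mean, with a log2 difference of -0.35 (adjusted p 3.68e-07, limma). In WT LSCs *Chac1* had 184 reads per kilobase and *Chac2* 69.8, and in Piezo1cko LSCs 2.68 and 50.4, so the more abundant of these cyclotransferases changed with genotype.

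The transsulfuration enzymes, which carry sulfur from homocysteine to cysteine inside the cell, were found in WT libraries only. *Cth*, cystathionine gamma-lyase, which releases cysteine (chromosome 3, 157894248 to 157925077), had 46.6, 47.4 and 43.3 normalized reads in WT and 0 in each Piezo1cko library. Against a floor of 3 reads per library this is at least 15.1-fold lower, a limit that covers counting error only. *Cbs*, cystathionine beta-synthase, the step before (chromosome 17, 31608894 to 31637238), had 16.5, 35.3 and 24.1 reads in WT and 0 in each Piezo1cko library, at least 8.33-fold lower. Both passed the threshold on the deposited scale, where the pull towards the mean leaves log2 differences of -0.34 and -0.19 (adjusted p 3.60e-09 and 7.67e-06, limma). As both entered the fit through their WT reads alone, these p-values are given as a description only. Even in WT they were scarce, at 16.4 and 3.38 reads per kilobase.

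**Figure D2:**
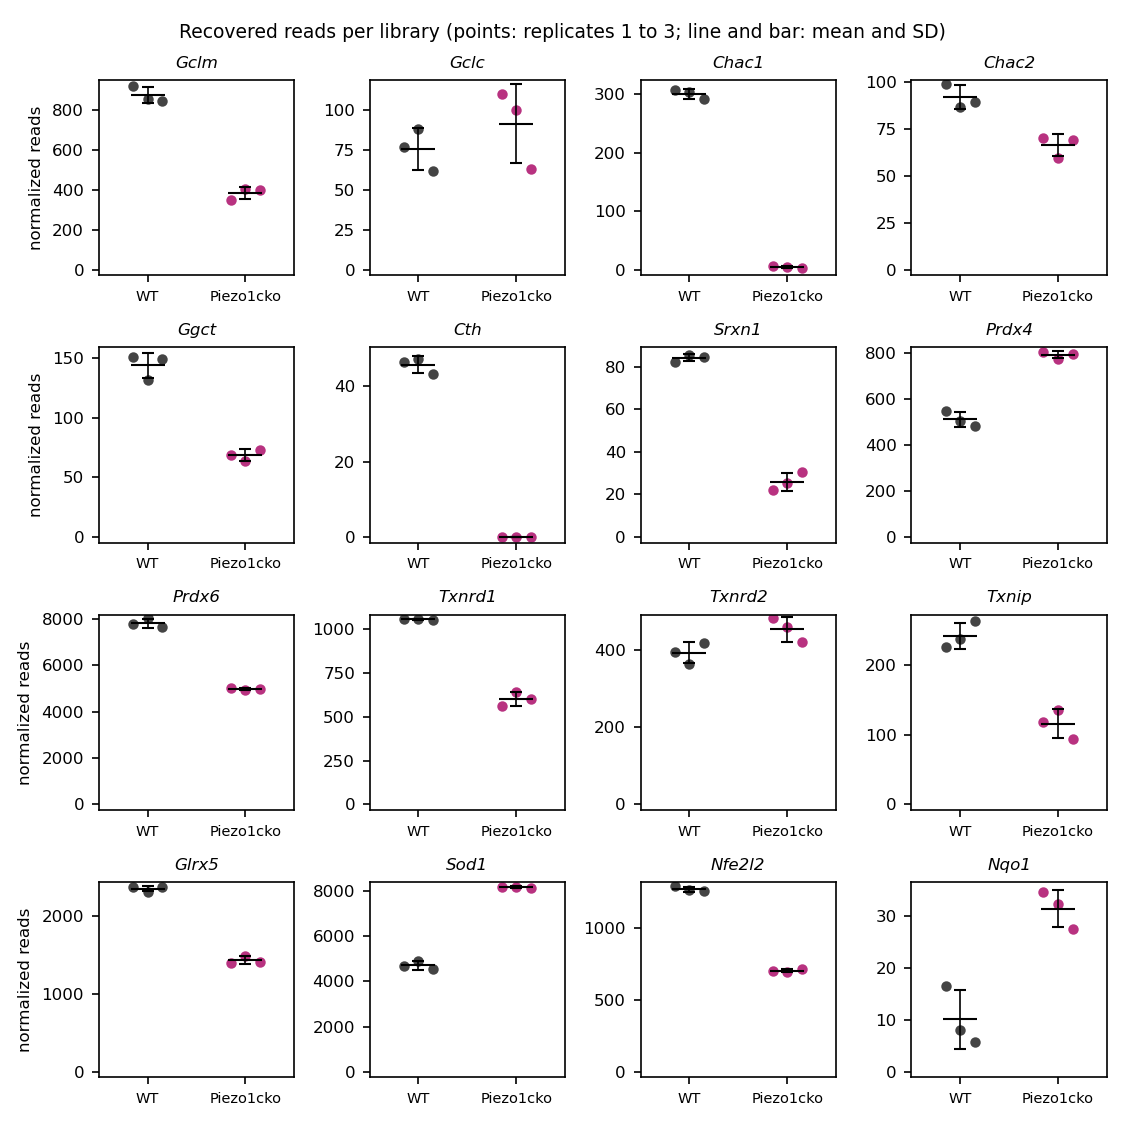
Normalized reads of 16 members in each library (points, replicates 1 to 3 from left to right) with the mean (line) and SD (bar) of each group, on axes that start at 0. *Gclm*, *Chac1*, *Cth*, *Srxn1* and *Nfe2l2* fall in all 3 Piezo1cko libraries, *Prdx4*, *Sod1* and *Nqo1* rise in all 3, and *Gclc* overlaps between groups.

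None of the 3 glutathione peroxidases tested passed the threshold. *Gpx4*, which reduces phospholipid hydroperoxides (chromosome 10, 80047166 to 80056439), had 2468, 2779 and 2706 normalized reads in WT and 2734, 2790 and 2860 in Piezo1cko libraries. The groups overlapped and the log2 difference was 0.05 ± 0.03 (adjusted p 0.131, limma). *Gpx1*, the cytosolic enzyme and the most abundant of the family at 7898 reads per kilobase in WT, read 11416, 11350 and 11376 in WT and 11438, 11977 and 12183 in Piezo1cko libraries, 104% of the WT mean (log2 difference 0.04, adjusted p 0.0653, limma). *Gpx3*, the secreted enzyme, had 3829 ± 13.4 (SD, n = 3) reads in WT and 3861 ± 48.4 in Piezo1cko libraries. All 3 means lie within 10% of WT, and both *Gpx1* and *Gpx4* passed the threshold as higher once the libraries were given equal medians (log2 differences 0.07 and 0.08) and with a replicate block (adjusted p 0.00316 and 0.0315, limma), as did *Gpx1* in the reads (adjusted p 0.0476, limma-voom). Of the letters of *Gpx4*, 34.7% of stretches of 50 bases also occur in transcripts of other genes, mainly a *Gpx4* pseudogene, so its reads may be shared with them. *Gpx1*, *Gpx3*, *Gpx4* and the thioredoxin reductases are selenoproteins, and of these 6 *Txnrd1* was lower, *Txnrd2* and *Txnrd3* higher. These are 16.7% and 33.3%, beside 31.4% and 31.6% of all genes.

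The peroxiredoxins, which reduce peroxides with thioredoxin or glutathione as the donor, went different ways. *Prdx6*, the only member of the family with a single catalytic cysteine and glutathione as its donor (chromosome 1, 161240112 to 161251219), had 7755, 8017 and 7652 normalized reads in WT and 5022, 4917 and 4956 in Piezo1cko libraries. It was lower in every Piezo1cko library, at 63.6% of the WT mean (log2 difference -0.48 ± 0.02, adjusted p 1.50e-12, limma). *Prdx4*, the peroxiredoxin of the endoplasmic reticulum (chromosome X, 155323918 to 155340754), had 547, 502 and 482 reads in WT and 804, 774 and 794 in Piezo1cko libraries. It was higher in every Piezo1cko library, at 155% of the WT mean (log2 difference 0.39 ± 0.04, adjusted p 2.89e-08, limma). The other 4 moved by less than 10% of the WT mean. *Prdx1*, the cytosolic form, had 6905 ± 213 (SD, n = 3) reads in WT and 7319 ± 116 in Piezo1cko libraries and was just higher (0.06, adjusted p 0.0231, limma). *Prdx3*, in mitochondria, and *Prdx5*, in several compartments, were just lower, with means of 890 against 808 and of 4808 against 4479 reads (adjusted p 0.0377 and 0.0283, limma). These 3 small calls were lost in 3 or 4 of the 6 fits that leave out 1 library, and *Prdx5* shares 19.1% of its exon bases with *Trmt112* on the other strand. *Prdx2*, the other cytosolic form, had 1730 ± 54.2 and 1728 ± 67.0 reads, with a log2 difference of -0.00 (adjusted p 0.973, limma). It shares 5.7% of its exon bases with *Junb* and 5.8% with *Rnaseh2a* on the other strand, so its reads may be shared with them. *Srxn1*, sulfiredoxin, which repairs overoxidized peroxiredoxins (chromosome 2, 152105516 to 152111376), had 82.5, 85.8 and 84.7 reads in WT and 21.9, 25.3 and 30.5 in Piezo1cko libraries. All Piezo1cko libraries were far below all WT libraries, at 30.8% of the WT mean, with a log2 fold of -1.69 ± 0.19 in the reads (adjusted p 2.32e-06, limma-voom).

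In the thioredoxin arm the reductases and the inhibitor changed, and the thioredoxins did not pass the threshold. *Txn1*, the cytosolic thioredoxin, had 1078 ± 38.9 (SD, n = 3) normalized reads in WT and 1123 ± 48.2 in Piezo1cko libraries, and *Txn2*, the mitochondrial one, 5346 ± 123 and 5409 ± 195. Neither passed the threshold (adjusted p 0.304 and 0.691, limma), and the groups overlapped for both. *Txnrd1*, the cytosolic reductase (chromosome 10, 82833951 to 82897712), had 1059, 1058 and 1055 reads in WT and 563, 641 and 601 in Piezo1cko libraries, a clear separation at 56.9% of the WT mean (log2 difference -0.52, adjusted p 3.32e-10, limma). *Txnrd2*, the mitochondrial reductase, read 395, 363 and 418 in WT and 482, 459 and 419 in Piezo1cko libraries, where the groups barely separate (log2 difference 0.12, adjusted p 0.0158, limma), and the call was lost in 3 of the 6 fits that leave out 1 library. *Txnrd3*, which also carries a glutaredoxin domain and is best known from testis, had 161, 161 and 142 reads in WT and 212, 178 and 192 in Piezo1cko libraries and was higher (log2 difference 0.14, adjusted p 0.00704, limma). *Txnip*, which binds and inhibits thioredoxin and limits glucose uptake (chromosome 3, 96557957 to 96561883), fell from 226, 237 and 264 to 119, 135 and 94.6 reads. This is 48.0% of the WT mean (log2 difference -0.45, adjusted p 1.58e-07, limma). Its fall in the reads, a log2 fold of -1.06, was -0.92 and no longer over 2-fold without Piezo1cko replicate 3, and 19.4% of its exon bases overlap the antisense gene *Gm15441*, which cannot be told apart, since the counting is not stated to use strand.

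Among the glutaredoxins, which reduce disulfides formed with glutathione or carry iron-sulfur clusters, 3 of 4 were lower. *Glrx5*, needed to build iron-sulfur clusters in mitochondria (chromosome 12, 105032688 to 105042906), had 2373, 2321 and 2381 normalized reads in WT and 1396, 1494 and 1416 in Piezo1cko libraries. It was lower without overlap, at 60.9% of the WT mean (log2 difference -0.50, adjusted p 4.29e-11, limma). *Glrx*, the cytosolic disulfide reductase, fell from 1949, 1958 and 1907 to 1336, 1258 and 1262 reads, 66.3% of the WT mean (log2 difference -0.41, adjusted p 1.04e-09, limma). *Glrx3*, which hands on iron in the cytosol, was lower by less, at 87.9% of the WT mean (log2 difference -0.13, adjusted p 0.000172, limma), and 15% of its stretches of 50 bases also occur in other genes. *Glrx2*, a mitochondrial form, had 565, 582 and 592 reads in WT and 611, 661 and 643 in Piezo1cko libraries and was just higher (adjusted p 0.0377, limma), a call lost in 5 of the 6 fits that leave out 1 library.

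The enzymes that remove superoxide and hydrogen peroxide without thiols were higher or did not pass the threshold. *Sod1*, the copper and zinc superoxide dismutase of the cytosol (chromosome 16, 90220754 to 90226329), had 4688, 4902 and 4525 normalized reads in WT and 8189, 8194 and 8126 in Piezo1cko libraries. Every Piezo1cko library was above every WT library, at 174% of the WT mean, the largest rise of any member on the deposited scale (log2 difference 0.58 ± 0.02, adjusted p 2.14e-13, limma). *Sod2*, the manganese enzyme of mitochondria, had 3591, 3440 and 3598 reads in WT and 3700, 3686 and 3684 in Piezo1cko libraries. These groups do not overlap, yet the log2 difference of 0.04 did not pass the threshold (adjusted p 0.141, limma). *Sod2* did pass as higher once the libraries were given equal medians (0.06, adjusted p 0.0312, limma). It also passed in the reads when these were scaled by library totals (0.08, adjusted p 0.0409, limma-voom). Of the stretches of 50 bases of *Sod2*, 20.9% also occur in other genes, so its reads may be shared with them. *Cat*, catalase, rose from 1694, 1666 and 1680 to 1970, 1972 and 2043 reads, 119% of the WT mean (log2 difference 0.17, adjusted p 3.21e-05, limma).

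*Nfe2l2*, the gene of NRF2 (chromosome 2, 75675513 to 75704641), was lower in Piezo1cko LSCs, and known NRF2 targets among the members went both ways. *Nfe2l2* had 1287, 1261 and 1254 normalized reads in WT and 701, 694 and 715 in Piezo1cko libraries. The groups were tight and far apart, at 55.5% of the WT mean (log2 difference -0.56 ± 0.03, adjusted p 2.13e-11, limma). *Keap1*, which presents NRF2 for degradation, had 1842, 2025 and 2005 reads in WT and 1581, 1717 and 1682 in Piezo1cko libraries and was lower by less, at 84.8% of the WT mean (log2 difference -0.16, adjusted p 0.000284, limma). *Nqo1*, a quinone reductase that is among the most used readouts of NRF2 (chromosome 8, 107388225 to 107403206), went the other way. It had 16.5, 8.07 and 5.77 reads in WT and 34.5, 32.2 and 27.5 in Piezo1cko libraries, so it was low throughout and higher in all 3 Piezo1cko libraries (log2 fold 1.71 ± 0.34 in the reads, adjusted p 0.00048, limma-voom). *Aifm2*, also known as FSP1, which reduces coenzyme Q at membranes and protects lipids independently of glutathione, rose from 166, 139 and 178 to 243, 222 and 226 reads, 143% of the WT mean (log2 difference 0.23, adjusted p 0.000129, limma). The glutathione transferases among the members, *Gstp1* and *Mgst1*, did not pass the threshold. *Gstp1* had 871, 883 and 900 reads in WT and 983, 996 and 906 in Piezo1cko libraries (log2 difference 0.08, adjusted p 0.0507, limma) and shares 33.7% of its stretches of 50 bases with *Gstp2* and a pseudogene. It did pass as higher with equal medians (0.1, adjusted p 0.0139, limma) and in the reads (0.12, adjusted p 0.0486, limma-voom). *Mgst1*, the microsomal enzyme, had 1566 ± 137 (SD, n = 3) and 1597 ± 36.6 reads, and the groups overlapped (adjusted p 0.627, limma).

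Partners within the system were compared as ratios of their normalized reads in the same library, for 8 pairs. The log2 ratio of *Gclm* to *Gclc* was 3.57, 3.27 and 3.77 in WT and 1.66, 2.0 and 2.65 in Piezo1cko libraries, a fall of the mean by 1.43. The ratio of *Chac1* to *Chac2* fell from 1.71 ± 0.09 (SD, n = 3) to -3.88 ± 0.78, that of *Txnrd1* to *Txnrd2* from 1.43 ± 0.10 to 0.41 ± 0.16, and that of *Nfe2l2* to *Keap1* from -0.63 ± 0.09 to -1.24 ± 0.07. The ratio of *Sod1* to *Sod2* rose from 0.41 ± 0.09 to 1.15 ± 0.01. In these 5 pairs the groups did not overlap, and the two-sided exact permutation p was 0.1, the smallest that 3 libraries against 3 allow, or 0.16 adjusted over the 8 pairs, so none could pass 0.05. In the other pairs the groups overlapped. The differences were 0.04 for *Txn1* to *Txn2* (exact p 0.4), -0.02 for *Gpx1* to *Gpx4* (exact p 0.9) and 0.09 for *Prdx1* to *Prdx2* (exact p 0.3).

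Per kilobase of exon, some families had another make-up in Piezo1cko LSCs, given here as a description. This scale divides by all annotated exon bases of a gene, so levels of different genes compare only roughly. *Gpx1*, *Gpx3* and *Gpx4* made up 68.4%, 18.3% and 13.3% of the glutathione peroxidase reads in WT and 68.7%, 17.8% and 13.5% in Piezo1cko LSCs, with the family's sum at 104% of WT. *Txn1* gave 44.7% of the thioredoxin reads in WT and 45.4% in Piezo1cko LSCs. Among the peroxiredoxins, *Prdx6* gave 21.5% ± 0.510 (SD, n = 3) in WT and 14.7% ± 0.223 in Piezo1cko LSCs, *Prdx1* 30.0% and 34.3%, and *Prdx4* 3.21% and 5.35%, with the sum at 92.9% of WT. The thioredoxin reductases changed their order on this scale only. *Txnrd1* gave 50.9% ± 0.653 of their reads per kilobase in WT and 33.2% ± 2.66 in Piezo1cko LSCs, where *Txnrd2*, at 40.1%, had the largest share. In normalized reads *Txnrd1* stayed above *Txnrd2* in every Piezo1cko library (563, 641 and 601 against 482, 459 and 419). *Sod1* gave 77.0% of the superoxide dismutase reads in WT and 84.8% in Piezo1cko LSCs, while the sum of both rose to 158% of WT. The glutaredoxins had the largest fall in their sum, to 74.4% of WT, and the share of *Glrx5* went from 37.0% to 30.3%. By compartment, 2 of the 6 mitochondrial members were lower (*Prdx3* and *Glrx5*) and 2 higher (*Txnrd2* and *Glrx2*), 33.3% each and so near the 31.4% and 31.6% of all genes, and the calls of *Prdx3*, *Txnrd2* and *Glrx2* were lost in 3, 3 and 5 of the 6 fits that leave out 1 library.

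**Figure D3:**
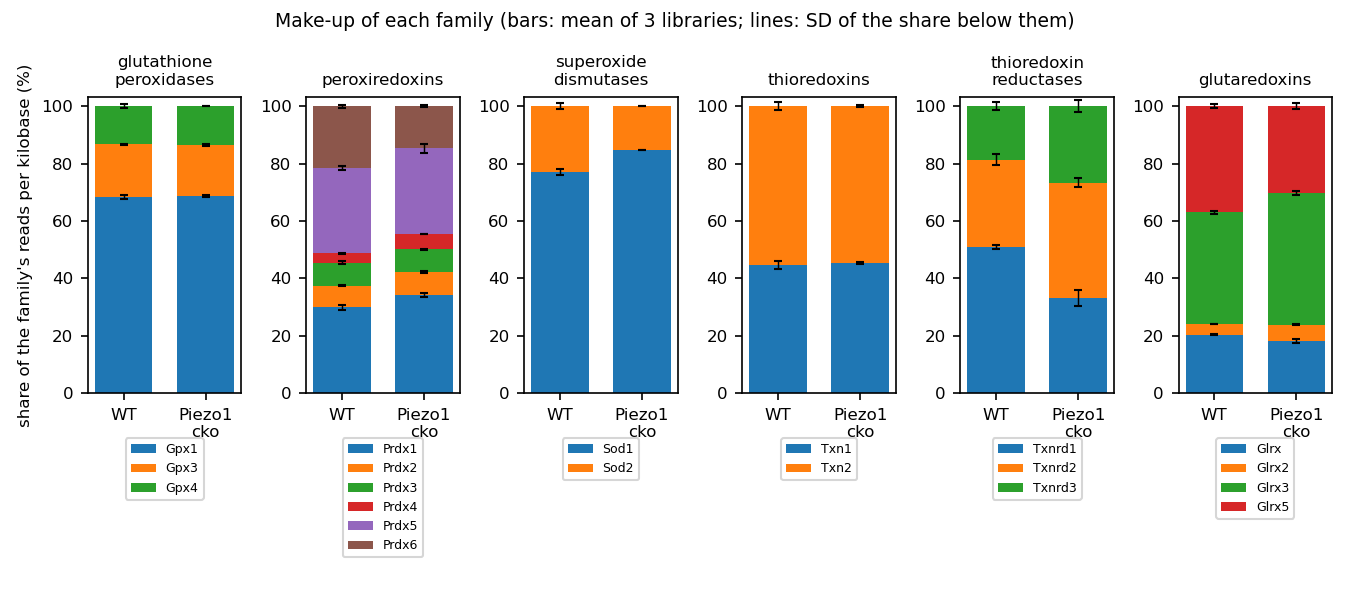
Share of each family's normalized reads per kilobase of exon held by each gene in WT and Piezo1cko LSCs (stacked bars, mean of 3 libraries, with lines for the SD). The shares of the glutathione peroxidases and thioredoxins differ by under 1 percentage point, while *Txnrd1* drops from 50.9% to 33.2% and *Prdx6* from 21.5% to 14.7%.

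Genes that feed or control the system were described from 7 further lists. The percents called in each list stand beside 31.4% lower and 31.6% higher of all genes. Of the 12 cystine and cysteine supply genes tested, 7 were lower and 2 higher (58.3% and 16.7%). *Slc7a11*, the transport subunit of the cystine-glutamate antiporter, had 839, 788 and 817 normalized reads in WT and 30.3, 22.4 and 47.8 in Piezo1cko libraries, 4.11% of the WT mean (log2 difference -2.21, adjusted p 2.67e-17, limma), and its partner subunit *Slc3a2* fell to 33.8%. The neutral amino acid transporters *Slc1a4* and *Slc1a5* fell to 3.78% and 55.7% of the WT mean, and *Anpep*, an aminopeptidase that cleaves cysteinylglycine, rose from a mean of 7.13 to 50.7 reads. Of the 15 integrated stress response genes, 12 were lower and 1 higher (80.0% and 6.67%), with a median log2 difference of -0.44. The largest falls there were those of *Trib3*, *Cebpb*, *Asns* and *Sesn2*, to 1.13%, 3.62%, 10.1% and 13.9% of the WT mean, and *Phgdh*, the first enzyme of serine synthesis, fell to 45.0%. *Chac1* at 1.46% was thus near *Trib3* in the size of its fall. Of the 15 partners and regulators of NRF2, 8 were lower and 4 higher (53.3% and 26.7%). They include *Nfe2l1*, a related factor, at 45.8% of the WT mean, *Palb2* and *Sqstm1*, whose proteins bind KEAP1, at 50.6% and 59.5%, *Nfe2*, the related factor of blood cells, at 75.7%, and the small MAF gene *Maff* at 203%.

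Of 23 other known NRF2 target genes tested, 2 were lower and 9 higher, with a median log2 difference of 0.04. These are 8.7% and 39.1%, beside 31.4% and 31.6% of all genes. By the 2-fold rule in the reads 4 of 24 were higher and 0 lower, where all genes gave 12.7% and 12.2%. The aldo-keto reductase *Akr1c13* rose from 123, 131 and 117 to 334, 317 and 299 normalized reads, the glutathione transferases *Gstm5* and *Gstm2* to 176% and 239% of the WT mean, the carbonyl reductase *Cbr1* to 179% and the biliverdin reductase *Blvrb* to 164%. Of the 13 NADPH supply genes, 7 were lower and 3 higher (53.8% and 23.1%, beside 31.4% and 31.6% of all genes). *Mthfd2*, a folate enzyme of mitochondria, fell to 23.2% of the WT mean, the NAD kinases *Nadk2* and *Nadk* to 49.0% and 78.1% and the malic enzyme *Me2* to 85.1%, and *Pgls*, of the pentose phosphate pathway, rose to 174%. Of the 8 genes of selenoprotein synthesis, 37.5% were called in each direction, near the 31.4% and 31.6% of all genes, with 3 lower (*Scly* and *Trnau1ap* at 82.6% and 88.4% are the largest) and 3 higher (*Pstk* at 186%, *Secisbp2* at 124% and *Eefsec* at 112%). Of the 23 other thiol repair and redox genes, 6 were lower and 10 higher (26.1% and 43.5%, beside 31.4% and 31.6% of all genes). *Oxr1*, an oxidation resistance gene, fell to 37.9% and *Sesn2*, a sestrin also counted above, to 13.9%, while the selenoprotein *Selenow* rose to 217%, the sestrin *Sesn3* to 191% and the methionine sulfoxide reductase *Msrb2* to 153%. Over the 7 lists, 44 of the 107 genes tested were lower and 32 higher, 41.1% and 29.9% beside 31.4% and 31.6% of all genes. Once the libraries were given equal medians, 40 were lower and 40 higher, and these shares of all genes do not apply to that fit. By the 2-fold rule in the reads 19 of 109 were lower and 8 higher, where all genes gave 12.2% and 12.7%.

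**Figure D4:**
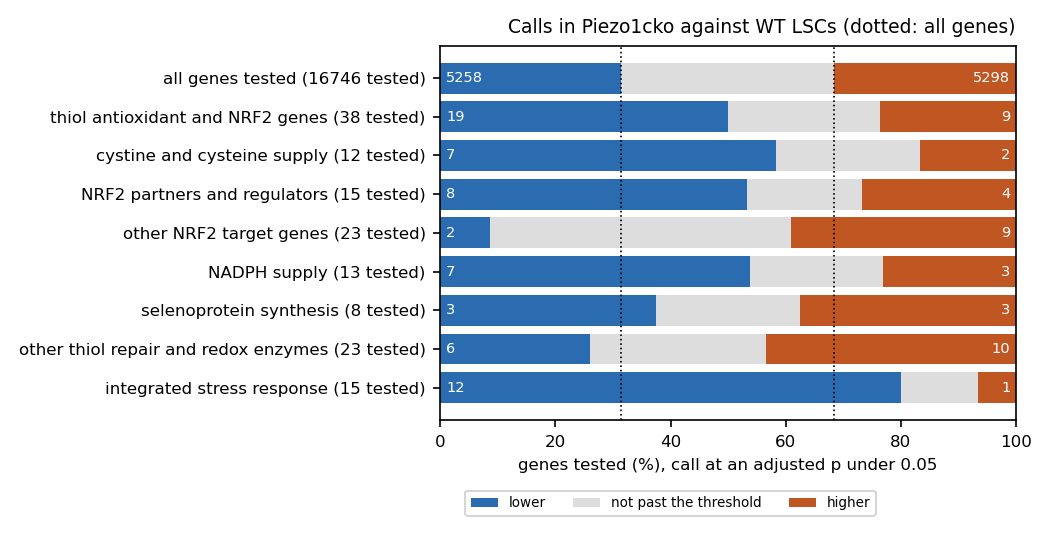
Share of the genes tested that were lower, higher or not past the threshold (limma on the deposited values, adjusted p under 0.05), for all 16746 genes, the 38 thiol antioxidant and NRF2 genes and the 7 further lists, with the numbers in the bars and dotted lines at the shares of all genes. The integrated stress response list has 12 of 15 lower, and the other NRF2 target genes 9 of 23 higher and 2 lower.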

How the data were processed

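RNA of 3 WT and 3 Piezo1cko LSC libraries was made into cDNA by a Smart-seq2 based protocol, fragmented with Tn5 and sequenced as paired ends. Per the labels and the methods, the authors used fastp 0.20.1 for trimming, HISAT2 2.2.1 for mapping to GRCm38, featureCounts 2.0.1 for counting and DESeq2 1.28.1 for normalization. The deposited log2 values have the form of a regularized log, a transform the sources used here do not name. Of 55367 genes, 28965 are at 0 in all libraries.

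Genes with a mean deposited value of at least 1 (16746) entered a limma fit (version 3.58.1 in R 4.3.3) of group alone, with moderated variances that follow a trend, and Benjamini-Hochberg adjustment ran over all of them. The regularized log was also undone. Of the values of genes with a mean of at least 1 read, 90.7% came within 0.1 of a whole number, against 21.9% with the pull set 10% off. The 17352 genes with at least 10 recovered reads in total were fitted with limma-voom. On simulated reads of 4000 genes the recovery was 100% exact. These were made with the same transform that was then undone, so this does not test the form of the transform. In simulated comparisons of the groups both fits found 200 of 200 changed genes, with 9 false calls on the deposited scale and 8 in the reads. The changed genes had a mean of at least 50 reads and changes of 2-fold or more. Smaller changes and scarcer genes were thus not covered. The median estimate was 0.610 times the simulated log2 change on the deposited scale (16790 genes) and 0.998 times it in the reads (16688 genes).

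Ratios of paired members used normalized reads with 0.5 added. Exon bases are the union of exons in GENCODE M21. Replicates differed by more than sampling noise in every group, with a chi-square per gene of 1.60 to 3.18. The members and lists were chosen with earlier results of these data known, and the study itself names *Gclm*, *Slc7a11* and *Slc3a2* from these libraries. The text names all 40 members, *Piezo1*, *Slc7a11*, *Slc3a2*, at most the 5 tested genes of each further list with the largest absolute log2 difference, and markers of other cells. Alternatives were no filter, a mean of at least 50 reads, equal medians, a replicate block, each library left out, and the recovered reads with their own variants, of which the block on the reads and the variants of the 2-fold rule were added after the data were seen. The value of 1 cell type marker is not reported here.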

Additional observations from a re-analysis of the deposited data

How the results depend on the processing

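No member past the threshold changed sign under any alternative run. Values near 0 that were not past it did when 1 library was left out, with *Mgst1* at -0.01 to 0.07, *Prdx2* at -0.02 to 0.02, *Txn2* at -0.00 to 0.03 and the ratio of *Gpx1* to *Gpx4* at -0.05 to 0.04. Counted by recovered reads with a change over 2-fold, the members called fell to 7 lower and 1 higher, and the genes of the further lists to 19 and 8, as that rule asks for a larger change. Leaving out each library in turn gave 16 to 18 members lower and 6 to 10 higher, 41 to 48 genes of the further lists lower and 25 to 31 higher, and by the 2-fold rule 6 or 7 members lower and 1 higher. The log2 difference of *Piezo1* then ran from -0.32 to -0.26. Of the calls of members, those of *Gss*, *Prdx1*, *Prdx3*, *Prdx5*, *Txnrd2* and *Glrx2* were lost in at least 1 such fit, and *Gclc*, *Gpx1* and *Gstp1* each passed the threshold in 1 of the 6. With equal medians 13 members were higher, and 40 genes of the further lists were lower and 40 higher. The ratios of pairs are smaller on the deposited log2 scale by the pull of that scale, at -0.80 for *Gclm* to *Gclc*, -1.38 for *Chac1* to *Chac2*, -0.64 for *Txnrd1* to *Txnrd2*, 0.54 for *Sod1* to *Sod2* and -0.39 for *Nfe2l2* to *Keap1*. Replicate numbers are shared between the groups, but deviations of same-numbered libraries correlated at 0.20, 0.16 and 0.07, so the numbers were not taken to pair the samples, although each library correlated best with its own number. With a replicate block 19 members were lower and 12 higher (*Gpx1*, *Gpx4* and *Gstp1* were gained), 47 and 35 genes of the further lists, and the log2 difference of *Piezo1* was -0.29. With 14112083 to 15483544 reads per library, *Gpx7* and *Gpx8* had too few reads to test, and changes of *Nqo1*, *Cbs* and *Cth* rest on under 50 reads per library.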
